A study of Mus musculus with 4 samples.

Results

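Interferon response and antigen presentation genes were followed in a muscle that had received a viral vector. The set held 45 genes, taken by name as sensors of microbial molecules and their adaptor, the factors that carry the interferon signal, the genes that interferon induces and the genes of peptide presentation on MHC class I and class II molecules. Of these, 43 had a probe set with exactly 1 gene symbol, among 18193 genes on the array that did. Isg15 and Ifi44 had none and were not analysed here. Each gene was read from its brightest probe set by the mean of the 4 arrays.

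Each mouse had AAV8 ProMyo injected into the tibialis cranialis, a shin muscle, of 1 leg, and saline injected into that of the opposite leg. All 8 mice were male C57Bl/6 on a high fat diet from 8 weeks of age, were injected after 4 weeks on it, and gave both muscles 10 weeks later, at 22 weeks of age. AAV8 is an adeno-associated virus capsid that enters muscle fibres well, and ProMyo is the myostatin propeptide, which holds myostatin, an inhibitor of muscle growth, in an inactive complex. RNA of animals 1-4 and of animals 5-8 was pooled in equal amounts, which gave 2 ProMyo arrays and 2 saline arrays from the same animals, and p-values measure the spread between these pools. The saline leg received no empty vector, so effects of the vector and of the propeptide cannot be told apart. The promoter that drives the propeptide is not given in the sources used here.

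Cells detect viral nucleic acid with Toll-like receptors in endosomes and with RNA helicases in the cytosol, which activate Irf3 and Irf7 and lead to the making of interferon. Type I interferon then acts through a complex that holds Stat2 and Irf9 on the interferon-stimulated response element (ISRE), a short DNA motif before the start of many induced genes, and interferon gamma acts on the gamma-activated site (GAS). Resting muscle fibres show little MHC class I, which rises in inflamed muscle, and MHC class II is carried mainly by macrophages, dendritic cells and B cells that lie between the fibres.

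The tissue was checked against its markers. The 8 skeletal muscle fibre markers were above background on every array, with mean log2 values of 11.41 and 11.32 in ProMyo legs, against 11.32 and 11.20 in saline legs. Background was set at 0.99, the highest log2 value of the 27 Bacillus control probe sets, for which mouse RNA has no target. That value came from saline 5-8 and was used for every array, while the highest control on the others was 0.57 to 0.76. A gene above background on saline 5-8 alone was therefore above it only on the array with the highest Bacillus control. Array medians lay between 1.06 and 1.11. The saline array of animals 5-8 stood apart, with an upper quartile of 2.97 against 3.15 to 3.20 on the other arrays and hybridization controls at a mean of 11.1 against 10.1 to 10.2. For a number of genes the value without it is given too.

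None of the interferon response and antigen presentation genes passed the test between ProMyo and saline muscle, and their differences were spread over both directions and stood near 0 in the median. The largest among genes above background on every array were higher Tlr3 and Nlrc5 in ProMyo muscle, at 1.92-fold and 1.72-fold. On all 4 arrays 30 of the 43 measured genes were above background, 8 were above it on some arrays and 5 on none. Across the 42 genes bright enough to be fitted (Mx2 was not), the median log2 difference of ProMyo minus saline was 0.07, beside 0.01 over all 15102 fitted genes. In both pools of animals 13 of the 42 were higher in ProMyo muscle (31.0%, against 29.0% of all fitted genes) and 7 were lower (16.7%, against 24.0%), while 22 had differences that were not of 1 sign. Of the lower ones, Tlr9, Irf8, Cxcl10 and Ciita were above background on no ProMyo array. Among the 30 above it on all arrays, 11 were higher and 3 lower (36.7% and 10.0%, against 32.2% and 22.2% of such genes). None of the 42 was at least 1.5-fold higher in both pools or at least 1.5-fold lower in both, where 1.03% and 0.563% of all fitted genes were. Both ProMyo arrays lay above both saline arrays for 9 genes (21.4%, against 17.8%) and below both for 4 (9.52%, against 15.7%). The limma test, adjusted over all 15102 genes, called 0 members and 0% of all genes (smallest adjusted p = 0.822), and 3 of the 42 members had an unadjusted p under 0.05 (Tlr3, Irf8 and Nlrc5; 7.14%, against 5.79% of all genes). With the paired pools as a block limma called 0 genes as well, and 4 of the 42 had an unadjusted p under 0.05 (Ciita beside those 3), against 6.88% of all genes. None of these shares was set apart from that of all genes by a test. The 1.5-fold count depends on single arrays: 2 members passed it upwards without ProMyo 5-8 (Usp18 and Nlrc5), and without saline 1-4 there were 4 upwards (Irf1, Tlr3, Gbp2 and Irgm1) and 2 downwards (Tlr9 and Ciita), where both differences share the lone array.

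**Figure D1:**
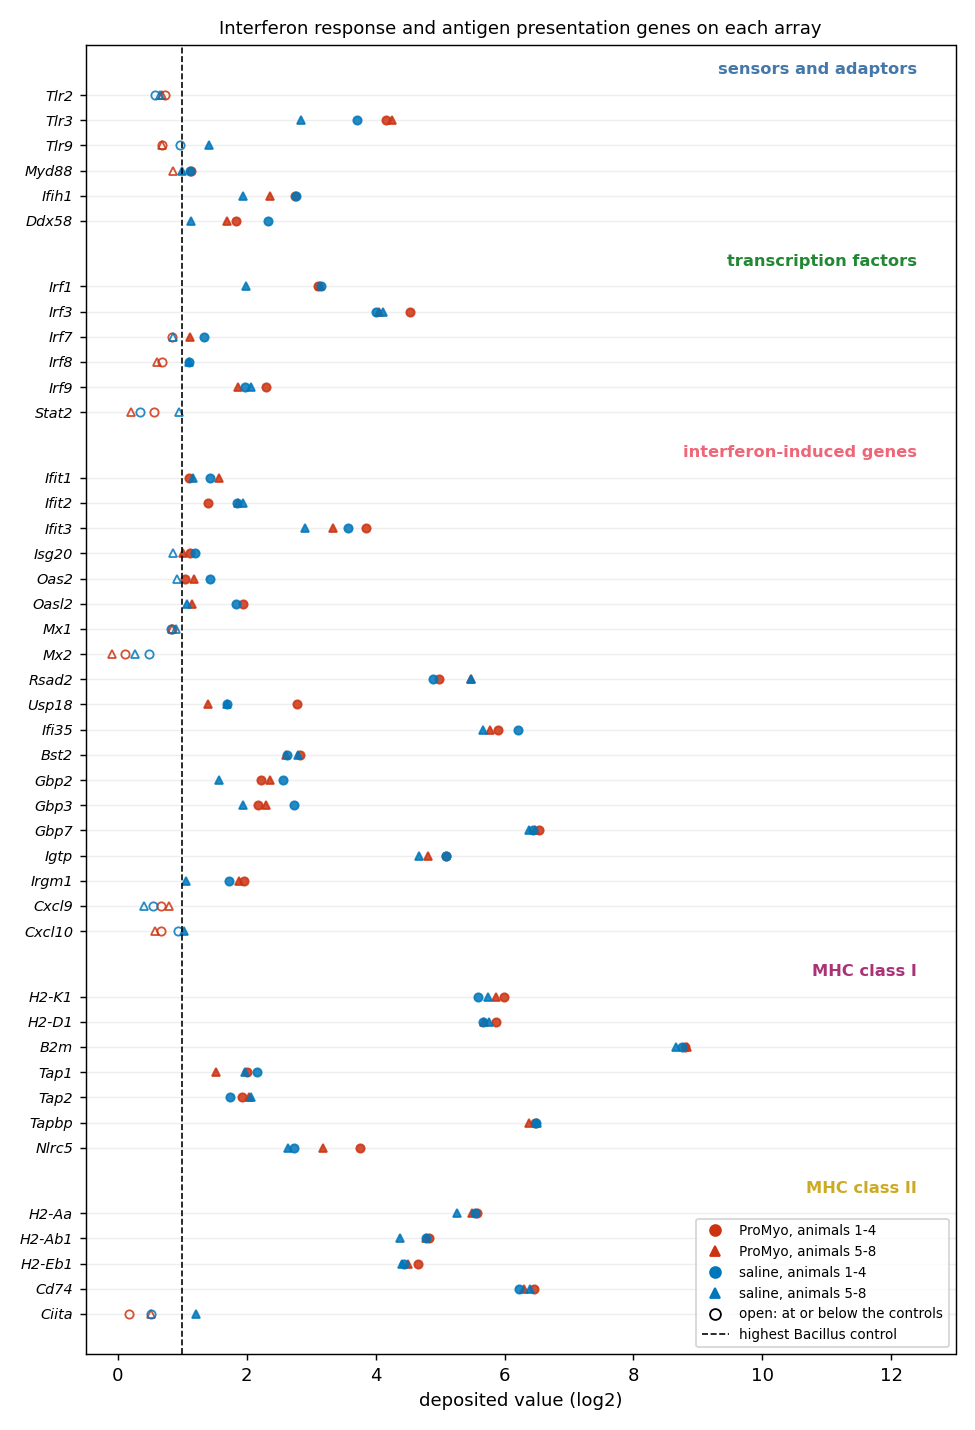
Deposited log2 value of each of the 43 measured genes on each array, with ProMyo muscle in red, saline muscle in blue, circles for animals 1-4 and triangles for animals 5-8. Open symbols are at or below the highest Bacillus control (dashed line, 0.99). For most genes the 4 symbols lie close together or the colours overlap, and Nlrc5 and Tlr3 have both ProMyo arrays above both saline arrays.

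Among the sensors, Tlr3, the endosomal receptor for double-stranded RNA, read 4.17 and 4.25 on the log2 scale in ProMyo muscle of animals 1-4 and 5-8, against 3.70 and 2.83 in saline muscle. Both ProMyo arrays were higher, and saline 5-8 was the low one. The difference was 0.94 ± 0.31 (log2 ± SE, n = 2 pools per group; limma, adjusted p = 0.822), or 1.92-fold, and it was 0.51 without saline 5-8. Its other probe set was at background on all arrays. Ifih1, the helicase MDA5, read 2.75 and 2.36 in ProMyo legs, against 2.77 and 1.95 in saline legs. Ddx58, the helicase RIG-I, read 1.83 and 1.69 in ProMyo legs, against 2.33 and 1.14 in saline legs. For both helicases the ProMyo arrays lay between the saline arrays. Without saline 5-8 the difference of Ifih1 was -0.21 in place of 0.20 ± 0.32, and that of Ddx58 was -0.57 in place of 0.02 ± 0.40. Myd88, the adaptor of most Toll-like receptors, was at the edge of background, with 1.13 and 0.86 in ProMyo legs, against 1.12 and 0.99 in saline legs. Tlr2, a receptor for bacterial lipoproteins, was at background on every array. Tlr9, the receptor for unmethylated CpG DNA, read 0.68 and 0.68 in ProMyo muscle, both within background, against 0.96 and 1.41 in saline muscle, of which only saline 5-8 was above it. In animals 1-4 both legs were thus within background and no fold is bounded there, so a lower Tlr9 in ProMyo muscle rests on 1 array (limma, adjusted p = 0.822).

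The transcription factors gave no common direction. Irf1, which is induced by interferon gamma and drives class I genes, read 3.11 and 3.13 in ProMyo legs, against 3.16 and 1.99 in saline legs. Its difference was 0.55 ± 0.39, and -0.04 without saline 5-8, the low array. Irf3, the factor activated directly by the sensors, read 4.53 and 4.05 in ProMyo legs, against 4.01 and 4.11 in saline legs, and its 4 probe sets above background gave differences between -0.20 and 0.23. Irf9, the DNA-binding partner of Stat2, read 2.30 and 1.86 in ProMyo legs, against 1.97 and 2.06 in saline legs. In all 3 the groups overlapped. Irf7, which amplifies interferon production, was above background on 1 array of each group, with 0.84 and 1.11 in ProMyo legs, against 1.34 and 0.85 in saline legs, and Stat2 was at background on every array. Irf8, a factor of macrophages and dendritic cells, read 0.69 and 0.60 in ProMyo muscle, within background, and 1.10 and 1.10 in saline muscle. It was at least 1.08-fold lower in ProMyo muscle (limma, unadjusted p = 0.030, adjusted p = 0.822). Its second probe set read 0.95 and 1.02 in ProMyo legs, against 1.00 and 0.47 in saline legs, and it did not share that direction.

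Of the 21 interferon-induced genes, 19 were measured, 18 fitted and 13 above background on all arrays. Those 18 had a median difference of 0.04, with 5 higher and 2 lower in both pools (27.8% and 11.1%, against 29.0% and 24.0% of all fitted genes). The median was 0.20 without saline 1-4 and -0.12 without saline 5-8, so its sign rested on which saline array was kept. Irgm1, an immunity-related GTPase, had the highest difference of the 13, with 1.95 and 1.87 in ProMyo legs, against 1.72 and 1.06 in saline legs. Both ProMyo arrays were higher, by 0.53 ± 0.26 (limma, adjusted p = 0.825), and by 0.19 without saline 5-8. Igtp, a GTPase of the same family, read 5.09 and 4.82 in ProMyo legs, against 5.09 and 4.68 in saline legs, a difference of 0.07 ± 0.22, and of -0.14 without saline 5-8. Usp18, which removes ISG15 from proteins and damps the interferon receptor, was high on a single array, with 2.78 and 1.40 in ProMyo legs, against 1.69 and 1.69 in saline legs.

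The guanylate-binding proteins, GTPases that attack intracellular pathogens, differed among themselves. On its brightest probe set Gbp7 was steady at 6.53 and 6.47 in ProMyo legs, against 6.44 and 6.38 in saline legs. The difference there was 0.09 ± 0.15. Its second probe set, also above background, read 1.68 and 1.68 in ProMyo legs, against 1.20 and 1.81 in saline legs. Gbp2 read 2.22 and 2.36 in ProMyo legs, against 2.56 and 1.57 in saline legs. Gbp3 read 2.17 and 2.29 in ProMyo legs, against 2.73 and 1.95 in saline legs. For Gbp2 and Gbp3 both ProMyo arrays lay between the saline arrays, and without saline 5-8 their differences were -0.27 and -0.50. The 3 measured Ifit genes, whose proteins bind foreign RNA, had no common direction. Ifit3 read 3.85 and 3.33 in ProMyo legs, against 3.57 and 2.90 in saline legs, and the groups overlapped. Its difference was 0.35 ± 0.30, and 0.018 without saline 5-8. Ifit1 read 1.10 and 1.57 in ProMyo legs, against 1.43 and 1.17 in saline legs, a difference of 0.03 ± 0.23. Ifit2 read 1.39 and 1.87 in ProMyo legs, against 1.85 and 1.93 in saline legs, a difference of -0.26 ± 0.21. Rsad2, the antiviral enzyme viperin, read 4.98 and 5.48 in ProMyo legs, against 4.89 and 5.49 in saline legs. On this probe set it followed the pool of animals in both legs, and its difference was 0.04 ± 0.29, or 0.34 without saline 5-8. A second Rsad2 probe set above background read 2.52 and 2.26 in ProMyo legs, against 2.41 and 2.25 in saline legs. It was higher in animals 1-4 in both legs. Oasl2, an oligoadenylate synthetase-like protein, was also higher in animals 1-4, with 1.95 and 1.15 in ProMyo legs, against 1.83 and 1.08 in saline legs. Without saline 5-8 its difference was -0.29 in place of 0.09 ± 0.38. On the brightest probe sets of these 2 genes, the legs of the same animals resembled each other more than the pools did. Ifi35, an interferon-induced leucine zipper protein, read 5.90 and 5.77 in ProMyo legs, against 6.21 and 5.67 in saline legs, a difference of -0.10 ± 0.23. Bst2, the membrane tether that holds budding virions, read 2.83 and 2.60 in ProMyo legs, against 2.63 and 2.80 in saline legs. The groups of both genes overlapped. Mx1, Mx2 and the brightest probe set of the chemokine Cxcl9 were at background on every array (a dimmer Cxcl9 probe set reached 1.08 on saline 1-4), as was Cxcl10, a chemokine that draws T cells, on all but saline 5-8, with 0.66 and 0.57 in ProMyo legs, against 0.93 and 1.02 in saline legs. Isg20, an exonuclease, read 1.12 and 1.01 in ProMyo legs, against 1.20 and 0.86 in saline legs. Oas2, which makes the activator of RNase L, read 1.04 and 1.18 in ProMyo legs, against 1.43 and 0.92 in saline legs. Both were above background on all arrays but saline 5-8.

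**Figure D2:**
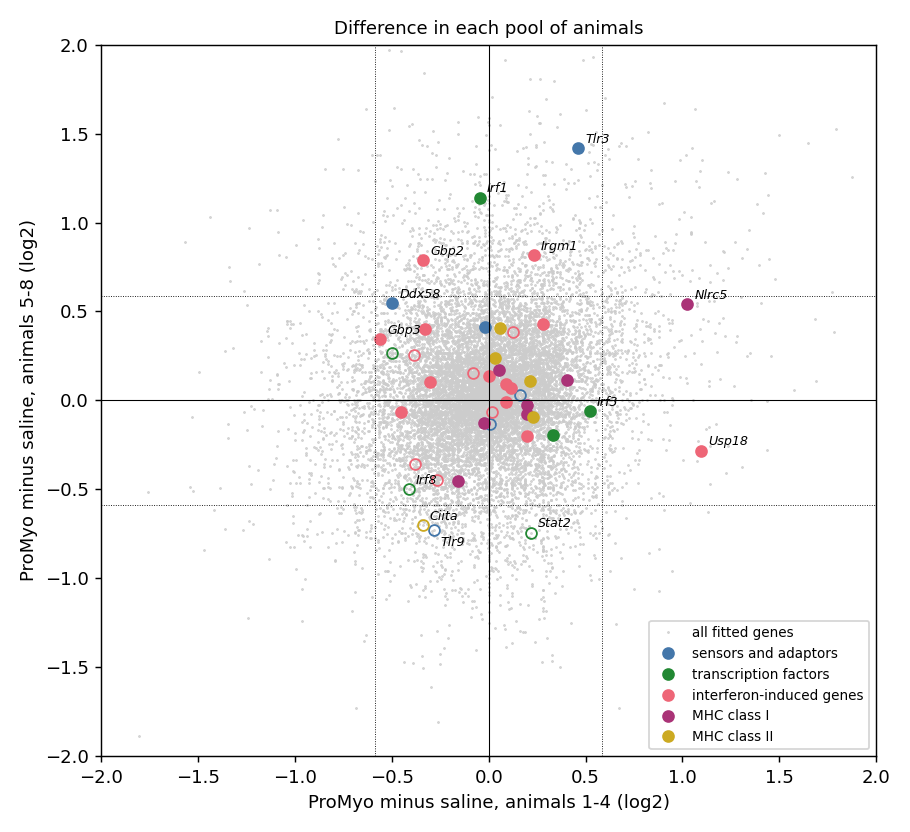
Log2 difference of ProMyo minus saline in animals 1-4 (horizontal) and in animals 5-8 (vertical) for the 43 measured members by group (filled, above background on all 4 arrays; open, not) over all 15102 fitted genes in grey, of which 4 lie beyond the axes. Dotted lines mark 1.5-fold. No member lies past 1.5-fold in both pools in the same direction, and Tlr3 and Nlrc5 lie past it in 1 pool and short of it in the other.

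Of the MHC class I genes all 7 were above background, and Nlrc5 stood out among them. Nlrc5 is the transactivator of class I genes. It read 3.76 and 3.18 in ProMyo legs, against 2.74 and 2.64 in saline legs. Both ProMyo arrays were higher, by 0.78 ± 0.24 or 1.72-fold (limma, unadjusted p = 0.021, adjusted p = 0.822). The difference was 1.02 in animals 1-4 and 0.54 in animals 5-8, and between 0.49 and 1.07 when any 1 array was left out. No second probe set of Nlrc5 was measured.

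The structural class I genes differed by less. H2-K1, a class I heavy chain, read 6.00 and 5.86 in ProMyo legs, against 5.59 and 5.75 in saline legs. Both ProMyo arrays were higher, by 0.26 ± 0.16 (limma, adjusted p = 0.844), and its 3 probe sets above background differed by between 0.13 and 0.26. H2-D1, the other heavy chain, read 5.87 and 5.68 in ProMyo legs, against 5.67 and 5.75 in saline legs. It differed by 0.06 ± 0.17, and its 7 probe sets above background gave values between -0.13 and 0.12. Heavy chain genes are close copies and most of these probe sets carry the suffix for probes shared with other transcripts, so values of the chains are uncertain. B2m, the light chain of every class I molecule, read 8.81 and 8.84 in ProMyo legs, against 8.75 and 8.67 in saline legs, a difference of 0.11 ± 0.15, and its second probe set gave -0.05. Tap1 and Tap2 form the transporter that carries peptides to the class I molecule, and Tapbp is tapasin, which loads them. Tap1 read 2.00 and 1.52 in ProMyo legs, against 2.16 and 1.97 in saline legs, so the groups overlapped at a difference of -0.31 ± 0.22. Tap2 read 1.93 and 2.04 in ProMyo legs, against 1.73 and 2.06 in saline legs, a difference of 0.09 ± 0.19. Tapbp read 6.47 and 6.37 in ProMyo legs, against 6.49 and 6.50 in saline legs, and both ProMyo arrays were lower by a difference of -0.07 ± 0.15. Across the 7 genes the median was 0.09, with 3 higher and 2 lower in both pools (42.9% and 28.6%, against 29.0% and 24.0% of all fitted genes).

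The MHC class II genes had a median of 0.14 over 5 fitted members. In both pools 3 were higher and 1 lower (60.0% and 20.0%, against 29.0% and 24.0% of all fitted genes). H2-Ab1, a class II beta chain, read 4.83 and 4.78 in ProMyo legs, against 4.78 and 4.37 in saline legs. Its difference was 0.23 ± 0.20, and 0.03 without saline 5-8. Its other probe sets above background gave 0.59 and -0.09. H2-Aa, the alpha chain, read 5.57 and 5.50 in ProMyo legs, against 5.54 and 5.26 in saline legs. It differed by 0.14 ± 0.18 with its 3 probe sets above background between 0.13 and 0.14, and by -0.0013 without saline 5-8. H2-Eb1, a second beta chain, read 4.65 and 4.51 in ProMyo legs, against 4.44 and 4.40 in saline legs, which put both ProMyo arrays higher by 0.16 ± 0.16. Cd74, the invariant chain that guards the class II groove, read 6.45 and 6.30 in ProMyo legs, against 6.22 and 6.39 in saline legs, and differed by 0.07 ± 0.17. Ciita, the class II transactivator, read 0.17 and 0.51 in ProMyo legs, against 0.51 and 1.22 in saline legs, above background on saline 5-8 alone. None of the 5 passed limma's threshold (adjusted p between 0.83 and 0.97). Without saline 5-8 the class II median was 0.03.

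MHC class II is carried mainly by immune cells, and in whole muscle fewer cells of a type cannot be told apart from less RNA per cell. The 10 macrophage markers, all measured, had mean log2 values of 3.58 and 3.44 in ProMyo legs, against 3.76 and 3.60 in saline legs. In both pools 1 was higher and 4 were lower, beside 29.0% and 24.0% of all fitted genes. Adgre1, a surface protein of macrophages, differed by -0.31 ± 0.18. The 4 general leukocyte markers averaged 2.66 and 2.39 in ProMyo legs, against 2.83 and 2.70 in saline legs, while Ptprc (CD45) among them stood at 0.14 ± 0.18. Both lists were thus lower in ProMyo muscle in their mean in both pools. In animals 5-8 the macrophage mean leaned on C1qa (-0.96) and Fcgr1 (-0.52), each within background there in ProMyo muscle. Cd163, above background on every array, was the 1 macrophage marker higher in both pools (0.15 and 0.59). Median differences in animals 1-4 and 5-8 were -0.31 and -0.23 for macrophage markers and -0.30 and -0.26 for leukocyte markers. Over the 8 macrophage markers above background on all arrays they were -0.36 and -0.18. For the class II genes they were 0.06 and 0.11, although Ciita, mostly within background, stood at -0.34 and -0.70. These medians were not set apart by a test. T cell markers averaged 0.86 and 0.98 in ProMyo legs, against 0.53 and 0.88 in saline legs, with Cd3e and Cd8a above background on the ProMyo arrays alone, 1 of 7 markers above it on all arrays and 3 on none. Cd3e, a chain of the T cell receptor complex, read 1.07 and 1.28 in ProMyo legs, against 0.27 and 0.91 in saline legs, at least 1.14-fold higher in ProMyo muscle. Cd8a read 1.19 and 1.28 in ProMyo legs, against 0.85 and 0.97 in saline legs, at least 1.19-fold higher (limma, adjusted p = 0.825 for both), and its sign turned under 1 alternative setting. The T cell mean was higher in ProMyo muscle in both pools, but on every array it lay below the background limit. Of the 5 fitted T cell markers, Cd3e and Cd8a were higher in both pools. The other 3 had differences of opposite sign, among them Cd2, the 1 above background on all arrays (-0.05 and 0.61). The B cell list averaged 1.45 and 1.18 in ProMyo legs, against 1.39 and 1.24 in saline legs, with 2 of 4 measured markers on no array above background. The NK cell list averaged 0.88 and 0.64 in ProMyo legs, against 0.74 and 0.82 in saline legs, with Ncr1 at background throughout. Neither list had the same direction in both pools. Dendritic cell markers averaged 1.35 and 1.42 in ProMyo legs, against 1.31 and 1.65 in saline legs. Of the 6 measured, 2 were above background on all arrays and 2 on none. Siglech, of plasmacytoid dendritic cells, stood at 0.09 ± 0.18. Itgax and Xcr1 were not above background on any array but saline 5-8. Neutrophil markers averaged 1.41 and 1.32 in ProMyo legs, against 1.39 and 1.20 in saline legs. Endothelial markers averaged 3.68 and 3.65 in ProMyo legs, against 3.62 and 3.52 in saline legs, with Pecam1 at 0.02 ± 0.25. The part of these cells in the values of the class I and class II genes was not tested.

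The saline arrays of animals 1-4 and 5-8 were set against each other, 1 array against 1 with no test, a comparison chosen after the values were seen. Of the 30 members above background, 9 were at least 1.5-fold higher in saline 1-4 than in saline 5-8 (30.0%, against 12.5% of 10540 such genes). At least 1.5-fold lower was 1, Rsad2 (against 2.95%), whose second probe set above background was higher in saline 1-4 (2.41 against 2.25). The 9 were Ddx58, with a log2 difference between these pools of 1.19, Irf1 with 1.17, Gbp2 with 0.99, Tlr3 with 0.87, Ifih1 with 0.82, Gbp3 with 0.79, Oasl2 with 0.76, Ifit3 with 0.67 and Irgm1 with 0.66. All 3 sensors, 1 of 3 transcription factors and 5 of 13 interferon-induced genes were among them, and 0 of the 11 class I and class II genes. Between the ProMyo pools 2 of the 30 were that much higher in animals 1-4, Oasl2 and Usp18 (against 4.21% of all genes above background), so Oasl2 alone was higher in animals 1-4 in both legs by this measure. Saline 5-8 was the lowest of the 4 arrays for 17 of the 30 members (56.7%, against 41.4%). The array that stood apart in its controls is the same one, and its part in these values was not tested. Of the 30 members, ProMyo was the higher leg in both pools for 11 (36.7%, against 32.2%) and the lower for 3 (10.0%, against 22.2%).

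**Figure D3:**
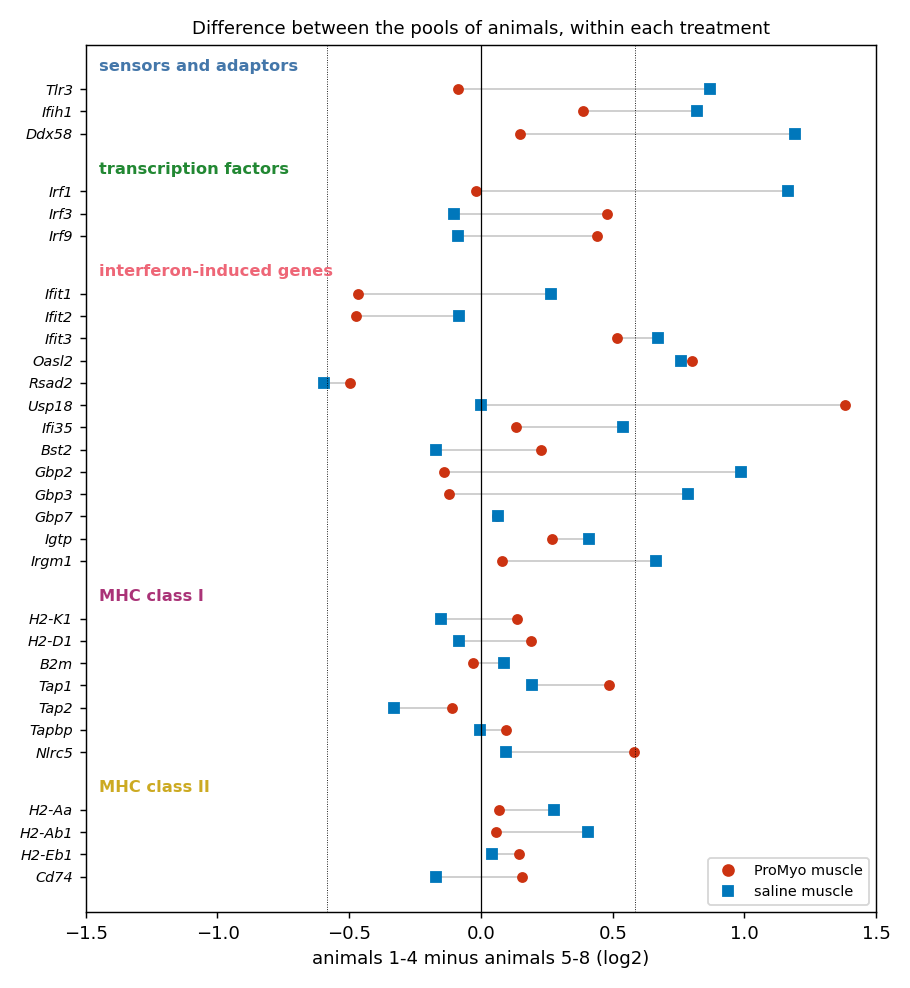
Log2 difference of animals 1-4 minus animals 5-8 within ProMyo muscle (red circles) and within saline muscle (blue squares) for the 30 members above background on all 4 arrays, with dotted lines at 1.5-fold. In saline muscle 9 sensors, transcription factors and interferon-induced genes lie right of the upper line, and class I and class II genes do not.

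Interferon-stimulated response elements were looked for in the 250 bases before the start of each gene, since several members differed together between the saline pools. The search used the core of this element, GAAA followed by any 2 bases and GAAA, on both strands, in RefSeq promoter windows of build GRCm38.p6. It was present in 14 of the 36 members with a window (38.9%, against 3.46% of 27025 genes), and in 11 of 17 interferon-induced genes. The core of the gamma-activated site, TTC, any 3 bases and GAA, was present in 8 of the 36 (22.2%, against 8.13%), 4 of which also held the response element core (Bst2, Gbp7, Igtp and Myd88). The matches of both motifs overlap in Bst2 and Myd88. Of the 9 members that were higher in saline 1-4 than in saline 5-8, 4 held the response element core, and of the 16 other members above background with a window, 6 did. The 160 bases before the start are shown for those 4 (Gbp2, Gbp3, Irgm1 and Ifit3). They are also shown for 3 with the core whose saline pools lay closer than 1.5-fold on the brightest probe set (Gbp7, Igtp and B2m). All are read along the gene's strand with each match to the core in capitals (TTTC, 2 bases and TTTC is the same core on the other strand). The stretches are Gbp2 at chr3:142620503-142620662 (plus strand), Gbp3 at chr3:142559884-142560043 (plus strand), Irgm1 at chr11:48871421-48871580 (minus strand), Ifit3 at chr19:34583369-34583528 (plus strand), Gbp7 at chr3:142530176-142530335 (plus strand), Igtp at chr11:58199396-58199555 (plus strand) and B2m at chr2:122147527-122147686 (plus strand).
Gbp2: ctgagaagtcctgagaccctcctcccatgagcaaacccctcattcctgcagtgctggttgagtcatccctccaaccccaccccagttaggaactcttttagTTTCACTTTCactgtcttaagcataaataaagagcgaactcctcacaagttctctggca
Gbp3: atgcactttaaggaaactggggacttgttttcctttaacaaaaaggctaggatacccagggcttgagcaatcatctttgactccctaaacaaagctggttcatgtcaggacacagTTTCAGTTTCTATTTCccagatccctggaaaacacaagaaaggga
Irgm1: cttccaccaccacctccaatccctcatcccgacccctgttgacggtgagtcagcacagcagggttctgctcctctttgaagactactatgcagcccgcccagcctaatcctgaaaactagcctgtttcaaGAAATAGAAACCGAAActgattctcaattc
Ifit3: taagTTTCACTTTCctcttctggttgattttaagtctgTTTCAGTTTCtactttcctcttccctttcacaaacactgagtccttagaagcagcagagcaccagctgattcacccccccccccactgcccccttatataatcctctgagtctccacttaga
Gbp7: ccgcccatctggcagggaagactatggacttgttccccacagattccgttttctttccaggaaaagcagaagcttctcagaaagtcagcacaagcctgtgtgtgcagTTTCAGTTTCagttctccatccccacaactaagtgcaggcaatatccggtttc
Igtp: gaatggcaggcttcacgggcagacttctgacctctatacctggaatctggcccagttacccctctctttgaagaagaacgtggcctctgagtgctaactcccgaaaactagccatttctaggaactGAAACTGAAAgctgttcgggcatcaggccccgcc
B2m: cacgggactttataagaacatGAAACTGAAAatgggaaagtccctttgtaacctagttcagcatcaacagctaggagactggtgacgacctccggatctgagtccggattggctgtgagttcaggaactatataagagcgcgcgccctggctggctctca

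Gbp2, Gbp3 and Gbp7 lie in 1 cluster on chromosome 3. In Gbp2 and Gbp7 the match starts 59 and 53 bases before the gene start, and Gbp3 holds 2 overlapping matches from 45 and 39 bases before it. On the brightest probe sets Gbp2 and Gbp3 were past 1.5-fold between the saline pools and Gbp7, at 0.07 on the log2 scale, was not. The second Gbp7 probe set read 1.20 in saline 1-4 and 1.81 in saline 5-8, past 1.5-fold the other way. The 2 GTPase genes Irgm1 and Igtp on chromosome 11 hold matches from 30 and 24 and from 34 bases before the start. Ifit3 has a pair 156 and 122 bases before the start, and B2m a single one at 139. A match is a description of the sequence and was not tested as a site.

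Other genes of the pathway, 104 in all and listed by role, were read in the same way. Of these 87 were measured and 78 fitted, with a median difference of 0.02. In both pools 25 were higher and 21 lower, beside 29.0% and 24.0% of all fitted genes. The 6 measured interferon ligand genes were at background on every array. The 8 fitted genes of interferon receptors and their kinases had a median of -0.04, with 1 higher and 2 lower in both pools. The other class I pathway genes, among them chaperones and immunoproteasome subunits, were higher in both pools for 7 of 10 and lower for 1, beside 29.0% and 24.0% of all fitted genes. Their median was 0.185, and over the 9 above background on all arrays it was 0.17, or 0.052 without saline 5-8. The other class II genes were higher for 4 of 9 and lower for 3, the other sensors higher for 1 of 10 and lower for 4, and the other interferon-induced genes higher for 12 of 38 and lower for 10. In all 4 of the 78 had an unadjusted p under 0.05 by limma, beside 5.79% of all genes, and 0 passed after adjustment (smallest adjusted p = 0.822). At least 1.5-fold higher in both pools was 1 of the 78, beside 1.03% of all fitted genes. This was Irgm2, a GTPase related to Irgm1 and Igtp. It read 4.50 and 4.35 in ProMyo legs, against 3.86 and 3.73 in saline legs, with both ProMyo arrays higher by 0.63 ± 0.16 (limma, unadjusted p = 0.012). H2-Oa, a class II chaperone subunit, and Ccl5, a chemokine of T cells, were at background on every array. Ticam1, the adaptor of Tlr3, read 0.89 and 0.51 in ProMyo muscle, within background, and 1.21 and 1.20 in saline muscle (at least 1.17-fold lower in ProMyo muscle; limma, unadjusted p = 0.045).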

How the data were processed

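Expression in muscle RNA pools of 4 mice was measured on 4 Affymetrix mouse arrays. Per the submitters' processing notes, the authors ran RMA in Affymetrix Expression Console (versions: not given in the sources used here), and deposited a log2 level for each probe set. The log base is read from the range of the values, which are low for RMA, so folds hold on the deposited scale. Of 45101 probe sets, 34945 had 1 gene symbol, 932 several and 9160 none, beside 64 controls. Each gene took its brightest probe set, and a gene whose mean lay under the 25th percentile of probe sets (0.45) was not fitted. The comparison of ProMyo with saline used limma 3.58.1 (R 4.3.3; lmFit, eBayes) over 15102 genes with Benjamini-Hochberg adjustment at 0.05. The step was also run on simulated arrays with unpaired pools and changes larger than any member's difference. That run cannot tell whether changes of the size seen here would be called. The median standard error was 0.193, and the number of arrays limits the precision. Pools are paired by the design, since both legs come from the same animals, and deviations of same-numbered pools correlated with r = 0.16 across genes. A value within background is a bound. Where both arrays of the brighter group are above the background limit, the highest Bacillus control, their mean is set against that limit. Named genes were all members, and of the other pathway lists those with an unadjusted p under 0.05 or at least 1.5-fold the same way in both pools. Of the marker lists, those that define a cell type or bear on the reading of a list's mean were named. The members and lists were chosen with earlier results of these data known. Promoter sequences came from RefSeq, build GRCm38.p6, and 9 members had none. Other settings tried were a block for the pool, a filter at the 50th percentile or none, limma-trend, quantile normalization, arrays centred on the median, a gene's mean probe set value and leaving out each array.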

Additional observations from a re-analysis of the deposited data

How the results depend on the processing

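Over 11 alternatives 0 of the 42 members passed limma's threshold (lowest adjusted p = 0.462). With the replicate block, which pairs the pools, 0 genes were called, and the block changed no call. With the filter at the 50th percentile 3 members and 12 other pathway genes were lower in both pools, and the transcription factor median was 0.23. Under quantile normalization the class II median was 0.067 and Rsad2 stood at -0.017. With the mean of probe sets the sign turned for Ddx58 (-0.11), Rsad2 (-0.070) and H2-D1 (-0.092). The cause was not tested. The 9 members at least 1.5-fold higher in saline 1-4 than in saline 5-8 (30.0%, against 12.5% of all genes above background) numbered 10 with median-centred arrays (33.3% against 14.3%), 8 after quantile normalization (26.7% against 7.7%) and 7 with the mean of probe sets (23.3% against 7.69%), settings added after seeing the data.

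Leaving out 1 array at a time, the 2 differences of a gene share the lone array of its group and are not differences within pools. By both of them 10 to 22 members were higher and 8 to 14 lower, 0 to 4 were at least 1.5-fold higher and 0 to 2 lower. These counts are therefore not like those from the pools. The medians ran between -0.17 and 0.33 for sensors, -0.12 and 0.20 for interferon-induced genes, and 0.028 and 0.18 for class II. In all 22 of the 42 differences changed sign without some array, counting only values of at least 0.005 on both sides, which leaves out H2-Aa (-0.0013 without saline 5-8) and Bst2 (0.00 with all arrays). These ran between -0.20 and 0.074 for Myd88, -0.21 and 0.61 for Ifih1, -0.57 and 0.62 for Ddx58, -0.037 and 1.13 for Irf1, -0.0087 and 0.47 for Irf3, -0.36 and 0.13 for Irf7, -0.15 and 0.29 for Irf9, and -0.57 and 0.045 for Stat2. Among interferon-induced genes they ran between -0.20 and 0.27 for Ifit1, -0.14 and 0.21 for Isg20, -0.32 and 0.19 for Oas2, -0.31 and 0.49 for Oasl2, -0.067 and 0.017 for Mx1, -0.26 and 0.34 for Rsad2, -0.28 and 1.10 for Usp18, -0.37 and 0.17 for Ifi35, -0.27 and 0.72 for Gbp2, -0.50 and 0.28 for Gbp3, and -0.14 and 0.28 for Igtp. For antigen presentation they ran between -0.033 and 0.16 for H2-D1, -0.078 and 0.25 for Tap2, and -0.017 and 0.15 for Cd74.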
